A study of Mus musculus with 21 samples.

Results

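Hox genes and the genes of the Dlx, Msx, Irx, sine oculis type (such as Six5), Meis and Pbx families encode homeodomain transcription factors that give cells of the embryo their position and identity. Their expression was examined in mouse epidermal keratinocytes with and without prolonged p16 expression. Members were chosen by gene name, as all Hoxa, Hoxb, Hoxc and Hoxd genes and the numbered genes of the other 6 families, which gave 67 genes of the 22050 entries measured. The name rule itself uses no expression value.

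Expression was measured by mRNA-seq of the 3′ ends of transcripts in 8 samples of sorted cells. Control samples (n = 4) came from mice of genotype K5-rtTA/tet-GFP. The p16 samples (n = 4) came from the genotype K5-rtTA/tet-GFP/tet-p16, with 1 transgene more, the human p16 gene. Mice of both groups were on a mixed background of FVB, C57Bl and 129sv and received doxycycline from 3 weeks of age for 6 months, so that the controls also expressed rtTA and GFP and were exposed to the drug. The keratin 5 promoter drives rtTA in basal cells of the epidermis and hair follicle. GFP+ cells of the dorsal skin were sorted after cells with CD140a, CD45 or CD31, surface proteins of fibroblasts, immune and endothelial cells, had been gated out, and each sample pooled about 80000 cells from 3 mice. The samples came from 3 independent experiments, whose assignment to samples is not given in the sources used here.

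Samples held between 1760953 and 3414362 reads on genes in the control group (median 2567719) and between 2884544 and 3202975 in the p16 group (median 3159755.5). Values are given as normalized reads (the read count over the size factor of its sample), in the order of replicates 1 to 4. A single read was worth between 0.74183 and 1.5278 normalized reads, depending on the sample. The human p16 transgene had 0.7, 1.3, 2.5 and 1.5 normalized reads in controls and 1.6, 10.1, 16 and 7.4 in p16 samples. The value of the library labelled p16 replicate 1 lay inside the range of the controls, and results are also given without that library. GFP transcripts were abundant, between 4152.0 and 5912.6 in controls and between 3161.8 and 3978.8 in p16 samples. The cells expressed the basal keratins Krt5 and Krt14, with group means of 13140 and 11700 in controls and 10040 and 9690 in p16 samples.

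Mouse Hox genes lie in 4 clusters, in which the order of the genes along the chromosome follows the order of their expression domains along the body, and genes in the same place of different clusters form a paralogue group, numbered from the anterior end. Adult skin cells keep part of this pattern. Meis and Pbx proteins, of the TALE class, bind DNA together with Hox proteins. Msx and Dlx factors act downstream of BMP signals in ectodermal organs, Irx factors pattern ectoderm and other tissues, sine oculis type factors work with Eya and Dach partners, and Hoxc13 is known for its role in the hair shaft and in nails, where it activates hair keratin genes.

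The first results concern 5 genes that were lower in p16 cells, and promoter sequence was available for 3 of them, Hoxd8, Hoxd9 and Msx1. Hoxc13 and Irx1 are named without sequence. The windows from RefSeq, on GRCm38.p6, run from 250 bases before the annotated start to 50 bases after it, and 40 of the 67 members had one. They are shown because these genes gave the 3 largest differences among the members, and Msx2 is added as the paralogue of Msx1. Each runs 5′ to 3′ along the strand of its gene, and capitals mark the letters CCAAT (or ATTGG, its reverse complement) and CTTTGAA or CTTTGAT, searched on both strands, which do not overlap each other in these windows.

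The window of Hoxd8 is at chr2:74704365-74704664, plus strand, that of Hoxd9 at chr2:74697513-74697812, plus strand, that of Msx1 at chr5:37824536-37824835, minus strand, and that of Msx2 at chr13:53472731-53473030, minus strand.
Hoxd8: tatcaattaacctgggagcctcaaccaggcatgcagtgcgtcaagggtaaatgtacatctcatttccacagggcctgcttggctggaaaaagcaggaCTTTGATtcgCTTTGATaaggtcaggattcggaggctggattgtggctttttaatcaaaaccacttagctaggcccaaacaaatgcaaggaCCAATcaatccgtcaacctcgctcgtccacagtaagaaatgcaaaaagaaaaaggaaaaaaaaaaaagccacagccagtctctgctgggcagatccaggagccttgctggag
Hoxd9: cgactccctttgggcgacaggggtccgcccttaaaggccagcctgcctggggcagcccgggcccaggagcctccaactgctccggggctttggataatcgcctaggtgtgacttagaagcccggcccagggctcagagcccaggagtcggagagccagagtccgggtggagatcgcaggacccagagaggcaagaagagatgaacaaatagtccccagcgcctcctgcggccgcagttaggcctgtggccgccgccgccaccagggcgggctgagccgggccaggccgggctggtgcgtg
Msx1: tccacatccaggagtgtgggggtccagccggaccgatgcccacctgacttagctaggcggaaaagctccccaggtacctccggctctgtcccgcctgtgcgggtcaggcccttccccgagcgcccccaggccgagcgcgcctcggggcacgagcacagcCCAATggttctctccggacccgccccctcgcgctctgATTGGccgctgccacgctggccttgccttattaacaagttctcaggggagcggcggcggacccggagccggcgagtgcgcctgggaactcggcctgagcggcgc
Msx2: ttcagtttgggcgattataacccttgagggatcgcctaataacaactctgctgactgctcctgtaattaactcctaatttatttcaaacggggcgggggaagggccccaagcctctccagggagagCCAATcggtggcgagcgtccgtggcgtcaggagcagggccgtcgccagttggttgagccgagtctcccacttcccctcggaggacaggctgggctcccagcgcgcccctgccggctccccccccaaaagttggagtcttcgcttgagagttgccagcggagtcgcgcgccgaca

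CCAAT, the core of the site of the NF-Y complex, was found in 37.4% of all 32851 promoter windows. It was present 1 time in the Hoxd8 window, 62 bases before the start, 2 times in the Msx1 window, 91 and 54 bases before the start, and 1 time in the Msx2 window, 124 bases before the start. CTTTGAA or CTTTGAT, the core of the site of Tcf and Lef factors, was found in 8.65% of windows and stood 2 times in that of Hoxd8, 153 and 143 bases before the start. Of the other letters searched on both strands, TATAAA (in 13.6% of windows) and TGATNNAT (8.85%, a Pbx and Hox type of site) were not in these 4 windows, and TAATTA (5.29%, a homeodomain type of site) was in that of Msx2, 187 bases before the start. The Hoxd9 window held none of the 5. GC content was 46.7% in the Hoxd8 window, 68.3% in Hoxd9, 70.0% in Msx1 and 61.0% in Msx2. These matches describe letters, and nothing was measured on binding.

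Dorsal keratinocytes expressed most anterior and central Hox genes and almost no posterior ones. A gene was counted as expressed at a mean of at least 5 normalized reads over the 8 samples, as detected below that level at a mean of at least 1, and as near the limit of detection at a lower mean. Of the 67 members, 38 were expressed, 7 were detected below that level, 7 were near the limit and 15 had 0 reads in every sample. A count of 0 reads allows up to 3, worth between 2.23 and 4.58 normalized reads, so low expression of those 15 was not detectable at this depth. These limits cover counting error only, and in pooled cells fewer cells with a transcript and less transcript in each cell cannot be told apart.

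In paralogue groups 1 to 9, 21 of 27 Hox genes were expressed, 3 were detected below that level (Hoxa6, Hoxd4 and Hoxd9) and 3 were at 0 (Hoxb1, Hoxd1 and Hoxd3). In groups 10 to 13, 10 of 12 were at 0 and Hoxc10 had 0.7 normalized reads in control replicate 1, 0.9 in p16 replicate 3 and 0.0 in the other samples. Hoxc13 was the exception among these posterior genes, with 893 reads in all. By cluster, 7 of 11 Hoxa, 8 of 10 Hoxb, 6 of 9 Hoxc and 1 of 9 Hoxd genes (Hoxd8) were expressed. Hoxd8 reached that level through its controls, with means of 22.1 in controls and 1.25 in p16 samples.

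Of the Hox cofactors, Meis1, Meis2, Pbx2 and Pbx3 were expressed, while Meis3 and Pbx4 were detected below that level. Dlx2, Dlx3 and Dlx5 were expressed, Dlx1 and Dlx4 were detected below that level and Dlx6 was near the limit. Msx1 and Msx2 were expressed and Msx3 had 0.9 normalized reads in p16 replicate 3 and none elsewhere. Msx1 reached the expressed level through its controls, with means of 10.88 in controls and 1.275 in p16 samples. Irx1, Irx2, Irx3, Irx4 and Irx5 were expressed, and Irx6 had no reads in controls and at most 1.6 normalized reads in a p16 sample. Of the sine oculis type genes, Six5 was the 1 expressed, Six2, Six3 and Six4 were near the limit, and Six6 was at 0.

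Homeobox patterning genes that differed between the groups were lower in p16 cells. The 45 members with a mean of at least 1 were tested with limma together with all other such genes, 12782 in all, on log2(normalized reads + 1), with Benjamini-Hochberg adjustment over all of them. On this scale the difference of a gene with few reads is understated. At an adjusted p under 0.05, 5 members were lower in p16 cells (11.1% of the 45), Hoxd8, Hoxc13, Msx1, Hoxd9 and Irx1, and 0 were higher. Over all tested genes 2.61% were lower and 1.24% higher. Hoxa6, Hoxd4 and Hoxd9 passed the filter on low values through their control samples, since their p16 means were under 1.

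At an unadjusted p under 0.05, 13 members were lower and 3 higher, where 8.93% and 7.02% of all tested genes were. The 4 p16 values lay below all 4 control values at 8 members and above them at 3, against 5.63% and 4.19% of all tested genes. The log2 difference was negative at 29 members and positive at 16, with a median of -0.15. For all tested genes the median was 0.00 and 50.4% were negative. With edgeR on the recovered reads (quasi-likelihood test) 3 of the 36 members tested were lower (Hoxd8, Hoxc13 and Irx1) and 0 higher, against 2.79% and 1.5% of its 10700 genes. Msx1 and Hoxd9 were not among the members that edgeR tested. In DESeq2 the same 5 members as in limma were lower of 44, and 0 were higher, against 2.85% and 1.52% of its 12475 genes. With the library labelled p16 replicate 1 left out, 4 members were lower in limma, and Irx1 had an adjusted p of 0.116.

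**Figure D1:**
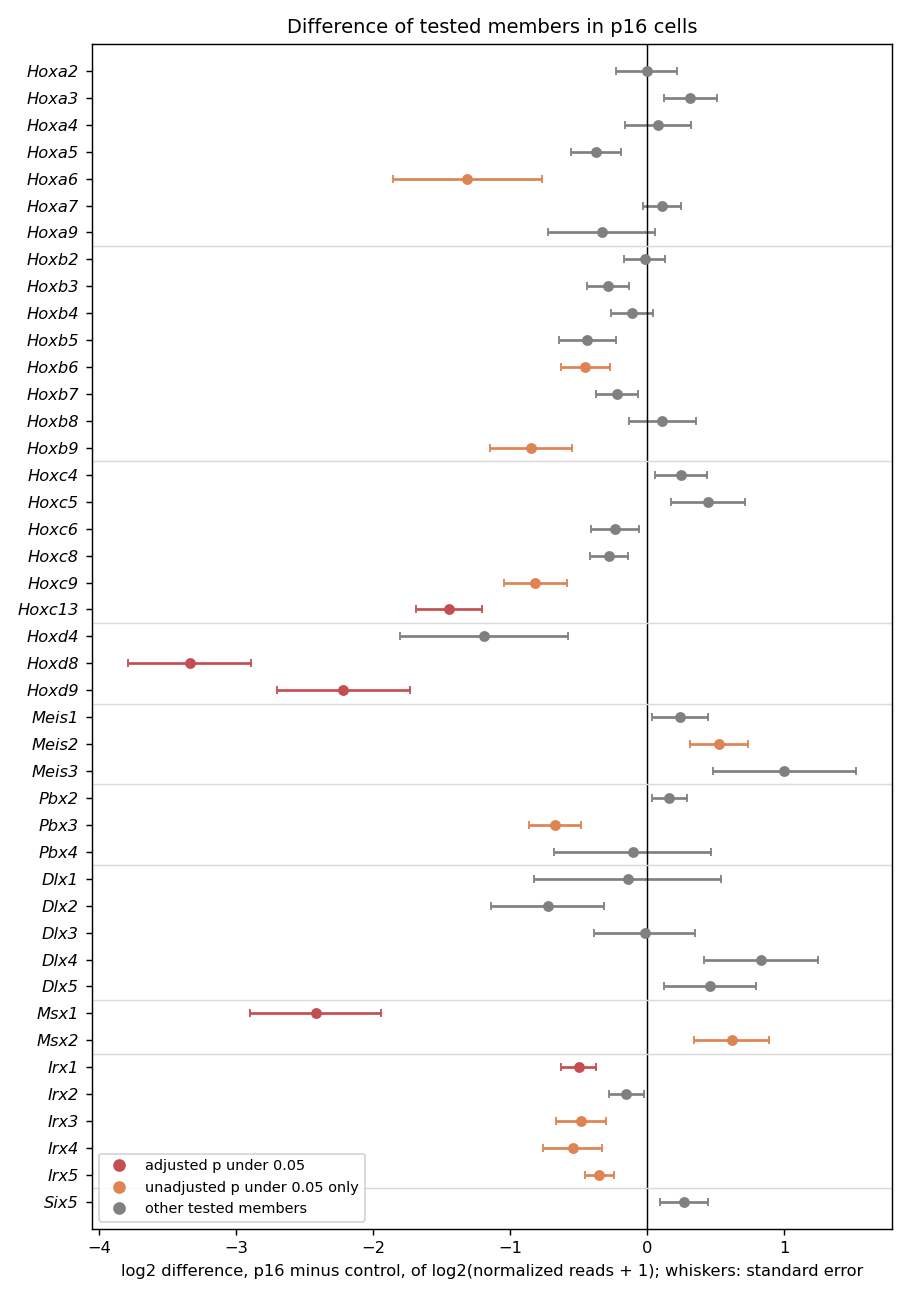
Difference of 43 tested members between 4 p16 and 4 control samples, on the log2(normalized reads + 1) scale (points) with the standard error from limma (whiskers), ordered by family. The 5 members with an adjusted p under 0.05, from Hoxd8 at -3.34 to Irx1 at -0.50, all lie left of the line at 0.

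The 2 Hox genes with the largest differences were neighbours in the Hoxd cluster. Hoxd8 (ENSMUSG00000027102, chromosome 2 of GRCm38 from 74704615 to 74707933), the only Hoxd gene counted as expressed, had 31.2, 16.7, 10 and 30.6 normalized reads in controls and 1.6, 1.6, 1.8 and 0.0 in p16 samples. All controls were above all p16 samples, none of which held more than 2 reads. With the p16 group at the limit of detection, Hoxd8 was by its control mean at least 8.97-fold lower in p16 cells. The limma log2 difference was -3.34 (standard error 0.45, adjusted p = 0.000608). The exact two-sided permutation p was 0.0286, the smallest that 4 samples against 4 allow. The adjusted p of Hoxd8 was 0.00214 in limma with the library labelled p16 replicate 1 left out. It was at most 0.0103 over the 16 other settings tried.

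Hoxd9 (ENSMUSG00000043342, chromosome 2 from 74697727 to 74700208) had 5.2, 5.1, 5.8 and 10.7 normalized reads in controls and 2.4, 0.0, 0.9 and 0.0 in p16 samples. The groups did not overlap. Control replicate 4 stood above the other controls in normalized reads, but held 7 reads, as did control replicates 1 and 3. By its control mean, Hoxd9 was at least 2.72-fold lower in p16 cells (limma log2 difference -2.22, standard error 0.49, adjusted p = 0.02), from 29 reads in all. Its adjusted p was 0.0146 with the library labelled p16 replicate 1 left out, but 0.0650 without control replicate 4 and 0.0540 without control replicate 1. Hoxd4, the remaining Hoxd gene with reads, had 4.5, 3.9, 0.8 and 0.0 in controls and a single read, worth 0.8, in p16 replicate 2 (adjusted p = 0.371).

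Hoxc13 (ENSMUSG00000001655, chromosome 15 from 102921103 to 102928814), the regulator of hair keratins, had 171.4, 80.9, 158.7 and 218.5 normalized reads in controls and 56.8, 63.2, 55.9 and 41.9 in p16 samples. Every p16 sample was below the lowest control, and the controls varied more among themselves than the p16 samples did. The means were 157 ± 57.1 (SD, n = 4) and 54.5 ± 8.98 (SD, n = 4), 2.89-fold lower in p16 cells (limma log2 difference -1.44, standard error 0.24, adjusted p = 0.00371). The adjusted p was 0.0134 with the library labelled p16 replicate 1 left out and at most 0.0385 over the 16 other settings.

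**Figure D2:**
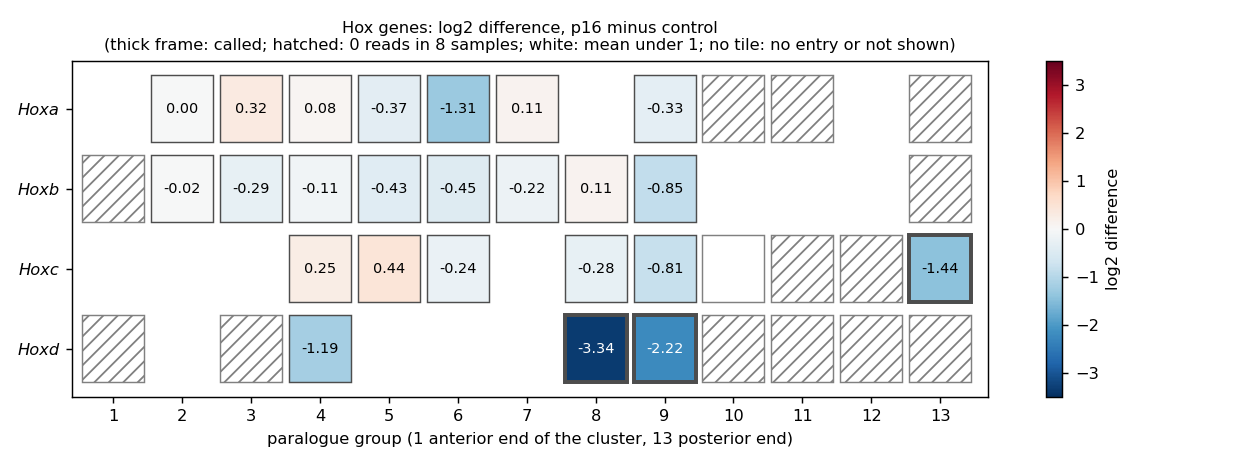
Hox genes arranged by cluster (rows) and paralogue group (columns), with the log2 difference of p16 minus control samples as colour and number. The 3 thick frames mark Hoxc13, Hoxd8 and Hoxd9, the hatched tiles are the 13 genes with 0 reads in every sample, and groups 10 to 13 hold 1 coloured tile.

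No other Hox gene passed the adjusted threshold, and 4 of them had lower values in p16 cells with an unadjusted p under 0.05. Hoxc9 had between 23.1 and 32.1 normalized reads in controls and between 12.5 and 18.6 in p16 samples, with no overlap, a 1.81-fold lower mean and an adjusted p of 0.0671 in limma. Hoxb9, its paralogue, had 75.7, 66.7, 41.8 and 77.9 in controls and 26.4, 32.8, 23.9 and 71.5 in p16 samples (log2 difference -0.85, standard error 0.30, limma adjusted p = 0.163). Its p16 replicate 4 lay within the control range while the other 3 p16 samples lay below it, and without that library the adjusted p was 0.00610. Hoxa9, the third expressed gene of this paralogue group, had 17.1 normalized reads on average and overlapping values (adjusted p = 0.765).

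Hoxb6 had means of 133 ± 29.2 and 96.6 ± 16.9 (SD, n = 4 each), with a log2 difference of -0.45 (limma adjusted p = 0.214) and overlapping values. Hoxa6, with 13 reads in all, had 3.0, 3.9, 1.7 and 1.5 normalized reads in controls, 2.5 in p16 replicate 4 and 0.0 in the other p16 samples (limma adjusted p = 0.244).

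By cluster, the median log2 difference was 0.04 over the 8 tested Hoxa genes, -0.25 over the 8 Hoxb genes and -0.26 over the 6 Hoxc genes. Values at Hoxb were negative at 7 of 8 genes, with Hoxb8 at 0.11 as the exception. Hoxa2 had the same mean in both groups, 41.5 normalized reads, and Hoxb2 had 168 ± 37.2 in controls and 163 ± 14.8 in p16 samples (SD, n = 4 each). The remaining Hox genes with an unadjusted p of 0.05 or more had log2 differences between -1.19 (Hoxd4) and 0.44 (Hoxc5). Gene models of neighbouring Hox genes overlap in GENCODE M21, so that their reads could have been left out or divided in counting. This holds for Hoxa3 with Hoxa4, Hoxa5 and Hoxa6, and for Hoxd4 with Hoxd3. It also holds for Hoxc5 with Hoxc6, Hoxc8, Hoxc9 and the posterior gene Hoxc10. Another gene model, Gm28308, overlaps Hoxa2, Hoxa3, Hoxa4, Hoxa5 and Hoxa6 on the same strand. Hoxd8 overlaps an antisense gene, Hoxd3os1, and use of strand in counting is not given in the sources used here.

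**Figure D3:**
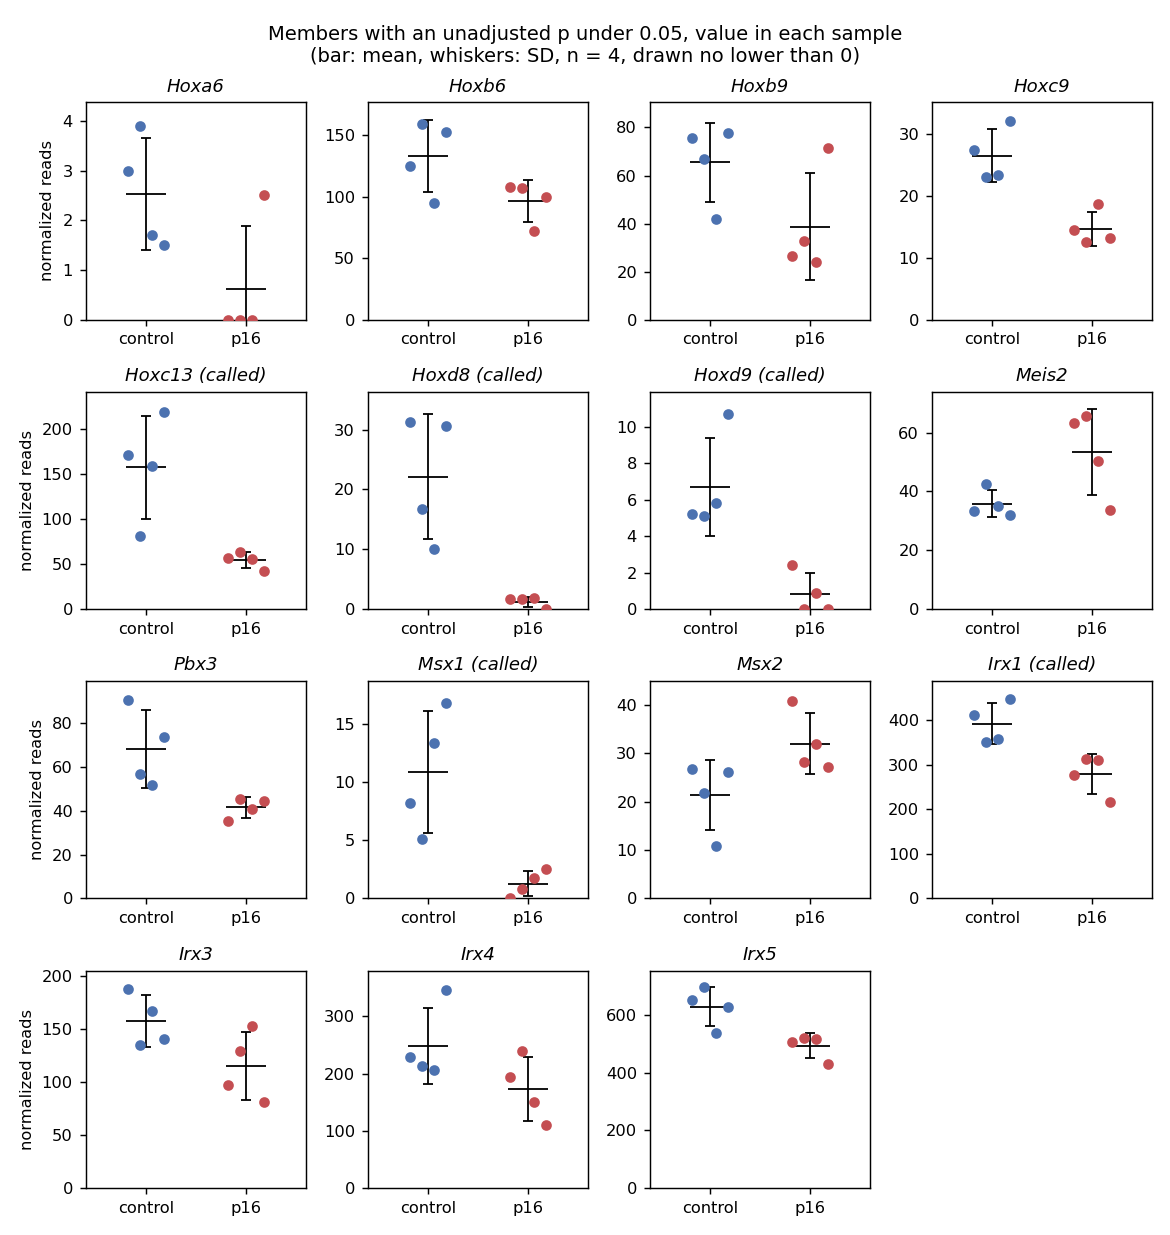
Normalized reads in each sample (points) of 15 members with an unadjusted p under 0.05, with the mean (bar) and SD (whiskers) of the 4 control (blue) and 4 p16 (red) samples, each panel on its own axis from 0. The p16 points of Hoxd8, Hoxd9, Hoxc13, Msx1 and Irx1 lie below all control points, and those of Msx2 lie above them.

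Among the Meis and Pbx genes 0 passed the adjusted threshold in limma, edgeR or DESeq2, and 2, Meis2 and Pbx3, had an unadjusted p under 0.05 in limma. Meis2 had 33.4, 42.4, 35.1 and 32.1 normalized reads in controls and 63.2, 65.6, 50.5 and 33.7 in p16 samples (log2 difference 0.52, standard error 0.21, limma adjusted p = 0.233). Its p16 replicate 4 lay inside the control range and the other 3 above it, and without that library the adjusted p was 0.0377. All 3 Meis genes had positive differences, with 0.24 at Meis1 and 1.00 at Meis3, the latter from 29 reads in all.

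Pbx3 had 90.5, 56.5, 51.8 and 73.3 normalized reads in controls and 35.2, 45.3, 40.8 and 44.4 in p16 samples, with no overlap and a 1.64-fold lower mean in p16 cells. Its adjusted p in limma was 0.0691, 0.0495 without control replicate 3 and 0.197 with the library labelled p16 replicate 1 left out. Pbx2, with 135 ± 13.8 and 152 ± 23.3 (SD, n = 4 each, controls first), had overlapping values and an adjusted p of 0.611 in limma. The 5 TALE genes Pknox1, Pknox2, Tgif1, Tgif2 and Mkx, taken as further cofactors, gave 0 calls in limma, edgeR or DESeq2 among the 4 tested, and 1 at an unadjusted p under 0.05, with a median of -0.05. Of these 4, Tgif2 came closest, with means of 11.6 and 21.8 (adjusted p = 0.0755).

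The paralogues Msx1 and Msx2, both effectors of BMP signals, lay on opposite sides of 0. Msx1 (ENSMUSG00000048450, chromosome 5 from 37820485 to 37824583) had 8.2, 5.1, 13.4 and 16.8 normalized reads in controls and 0.0, 0.8, 1.8 and 2.5 in p16 samples. All controls were above all p16 samples, which held at most 3 reads each. By its control mean, Msx1 was at least 4.41-fold lower in p16 cells (limma log2 difference -2.42, standard error 0.48, adjusted p = 0.0108, exact two-sided permutation p = 0.0286). The limma adjusted p was 0.0345 with the library labelled p16 replicate 1 left out.

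Msx2 (ENSMUSG00000021469, chromosome 13 from 53466884 to 53473074) had 26.7, 21.8, 10.9 and 26.0 normalized reads in controls and 40.8, 28.1, 31.9 and 27.1 in p16 samples. The groups did not overlap, but the highest control and the lowest p16 sample differed by less than the value of 1 read. Its mean was 1.5-fold higher in p16 cells with an adjusted p of 0.282 in limma, and whether the differences of Msx1 and Msx2 are unlike was not tested.

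Of the Dlx genes 0 passed the adjusted threshold in limma, edgeR or DESeq2, and 0 had an unadjusted p under 0.05 in limma. Dlx2 had means of 10.3 ± 6.80 and 5.13 ± 1.54 (SD, n = 4 each, controls first), and Dlx1, its neighbour, had 1.5, 0.0, 0.8 and 13.8 in controls and between 0.9 and 2.5 in p16 samples. The difference in means of Dlx1 thus rested on control replicate 4 (limma log2 difference -0.14, adjusted p = 0.955). Dlx3, a factor of epidermal and hair differentiation, had 11.9 ± 5.12 and 11.8 ± 4.54, and Dlx5 had 9.68 ± 2.81 and 14.3 ± 6.40. Dlx4, the partner of Dlx3 in its pair, had between 1.3 and 1.7 normalized reads in controls and between 1.8 and 5.8 in p16 samples, at most 7 reads a sample, with no overlap and an adjusted p of 0.348 in limma.

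All 5 expressed Irx genes had negative differences, with a median of -0.48, and 1 of them passed the adjusted threshold. Irx1 (ENSMUSG00000060969, chromosome 13 from 71957921 to 71963723) had 411.0, 351.6, 356.6 and 447.6 normalized reads in controls and 275.8, 312.3, 309.4 and 216.2 in p16 samples. The groups did not overlap. The means of 392 ± 46.0 and 278 ± 44.7 (SD, n = 4 each) gave a 1.41-fold lower level in p16 cells (limma log2 difference -0.50, standard error 0.13, adjusted p = 0.0437). This call was close to the threshold, and it was kept in 5 of 16 other settings and in 1 of 8 fits with a sample left out, where the adjusted p reached 0.133.

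Irx2, next to Irx1 on chromosome 13, had 586 ± 60.1 and 531 ± 89.0 (SD, n = 4 each, controls first) with overlapping values and an adjusted p of 0.637 in limma. Irx4, the third gene of that cluster, had 228.5, 213.0, 205.5 and 346.8 in controls and 193.5, 238.9, 149.8 and 110.2 in p16 samples, a log2 difference of -0.54 (limma adjusted p = 0.214). Its groups overlapped, and control replicate 4 stood far above the other 3 controls. In the cluster on chromosome 8, Irx5 had between 540.4 and 699.4 in controls and between 430.8 and 523.1 in p16 samples, without overlap (log2 difference -0.35, limma adjusted p = 0.0874). Irx3, on the same chromosome, had 157 ± 24.4 and 115 ± 32.2 (log2 difference -0.48, adjusted p = 0.191).

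Six5 had 46.7 ± 8.47 normalized reads in controls and 56.0 ± 5.61 in p16 samples (SD, n = 4 each, limma adjusted p = 0.496). Among the 6 Eya and Dach genes, partners of the sine oculis type proteins, 4 were tested and 1 was called, Eya2, with 46.7, 16.7, 81.8 and 71.8 in controls and 6.4, 25.8, 11.5 and 11.5 in p16 samples. Its groups overlapped in control replicate 2 and p16 replicate 2, and the log2 difference was -1.84 (standard error 0.45, limma adjusted p = 0.0352). The share called lower was 2.61% over all tested genes. With the library labelled p16 replicate 1 left out, 0 of these 4 genes were called, and likewise without p16 replicate 3 or control replicate 1, 3 or 4.

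Genes that regulate Hox expression in the embryo gave 1 call, where 2.61% of all tested genes were lower and 1.24% higher. Polycomb proteins keep Hox genes silent and Trithorax proteins keep them active. Of 31 Polycomb genes tested, 1 was called, the PRC1 subunit Cbx6, with 109.8, 75.7, 90.2 and 145.1 normalized reads in controls and 27.2, 46.1, 31.0 and 28.8 in p16 samples, 3.16-fold lower (limma adjusted p = 0.000560). The median of the list was 0.01, and Ezh2, the catalytic subunit of PRC2, had means of 92.4 and 73.5 (adjusted p = 0.386). Of 15 Trithorax genes 0 were called in limma, edgeR or DESeq2, also 0 at an unadjusted p under 0.05 in limma, with a median of 0.03 and log2 differences between -0.25 and 0.24.

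In the BMP list of ligands, receptors, Smads, targets and antagonists, 3 of 21 tested genes were lower and 0 higher, with a median of -0.20, against 2.61% lower and 1.24% higher over all tested genes. These were Id2, a target gene, with means of 285 and 73.5 normalized reads (limma log2 difference -1.92, adjusted p = 3.73e-06), Grem1, an antagonist, with 58.8 and 7.05 (-2.88, adjusted p = 0.000337), and Id1, a target gene, with 539 and 340 (-0.66, adjusted p = 0.0135). The ligand genes Bmp4 and Bmp7 had log2 differences of 0.06 each and Bmp2 one of -0.48 (limma adjusted p = 0.329). Smad6 and Smad9, with differences of -0.88 and -1.75, had an unadjusted p under 0.05 and an adjusted p of 0.209 and 0.0862 in limma. The summed level of the list lay between 3462 and 3856 in controls and between 2713 and 3205 in p16 samples, without overlap. This sum includes the called genes Id1, Id2 and Grem1, and no sum without them was made. Of the 21 tested genes, 14 had negative and 7 positive differences.

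Among 35 other homeobox genes of skin, 18 were tested, with 1 call in each direction and a median of 0.00. Of all tested genes, 2.61% were lower and 1.24% higher. Lhx2, a factor of hair-follicle stem cells, had 658.7, 391.4, 487.8 and 540.8 normalized reads in controls and 103.1, 150.7, 159.6 and 66.6 in p16 samples, 4.33-fold lower (limma adjusted p = 0.000111). Pou2f3, a factor of differentiating epidermis, had between 126.8 and 168.1 in controls and between 182.7 and 253.5 in p16 samples, 1.51-fold higher (adjusted p = 0.02). With the library labelled p16 replicate 1 left out 1 gene of the list was lower and 0 were higher, as was so without p16 replicate 3 or control replicate 1. In this list 7 genes were at 0 in every sample, among them En1, Barx1 and Emx1.

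Most markers of hair-follicle cells were lower in the same p16 samples as Hoxc13, Hoxd8, Hoxd9, Msx1 and Irx1. Of 12 genes of hair-follicle stem cells and outer root sheath, 9 were lower and 0 higher (median -0.71). Over all tested genes 2.61% were lower and 1.24% higher. Positive differences were seen at 2 of the 12, Postn and Cdh3. Postn had means of 287 and 501 normalized reads (limma adjusted p = 0.272) and Cdh3 had 427 and 478 (adjusted p = 0.410), controls first. Cd34, the marker of bulge stem cells, had means of 169 and 11.8 normalized reads, Krt75 had 71.9 and 18.7, and Tcf7l1 had 114 and 44.7, controls first. The summed level of the list was 13301 to 17226 in controls and 9978 to 10390 in p16 samples, without overlap, and none of the 12 was at 0. Most of it came from Krt15, with means of 10620 and 7066 (limma adjusted p = 0.0463). Lhx2 belongs to this list too. The part of these cells in the differences of the patterning genes was not tested.

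Genes of the hair shaft and inner root sheath, where Hoxc13 and Msx2 act, had 1 call in each direction among 15 tested. Over all tested genes 2.61% were lower and 1.24% higher. The list had 11 negative and 4 positive differences, with a median of -0.34. Foxn1, of this list, had means of 19.5 in controls and 20.6 in p16 samples (limma adjusted p = 0.914). The hair keratin Krt35 had 2.2, 2.6, 6.7 and 1.5 normalized reads in controls and 0.0 in every p16 sample, and passed the filter on low values through the controls (limma adjusted p = 0.0432). No gene of the list was called lower with edgeR, a mean of at least 5, a pseudocount of 0.1, replicate 3 of both groups left out, a replicate block, or without control replicate 1, 2 or 3 or p16 replicate 1, 2 or 3, and 2 were with DESeq2 and 3 without control replicate 4. The transglutaminase Tgm3 had means of 39.1 and 153 and was higher (limma adjusted p = 0.00588). The hair keratin Krt32 had 103.1, 106.5, 76.0 and 58.1 normalized reads in controls and 50.4, 40.6, 39.0 and 73.2 in p16 samples, with overlap in control replicate 4 and p16 replicate 4 (log2 difference -0.75, limma adjusted p = 0.0929). In this list 4 keratin genes were at 0 in every sample (Krt34, Krt74, Krt81 and Krt82). Its summed level, 2774 to 3459 in controls and 3122 to 3605 in p16 samples, overlapped and came mostly from Gata3, with means of 2262 and 2626, a gene of wide epidermal expression. The part of hair matrix cells in the Hoxc13 values was not tested.

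**Figure D4:**
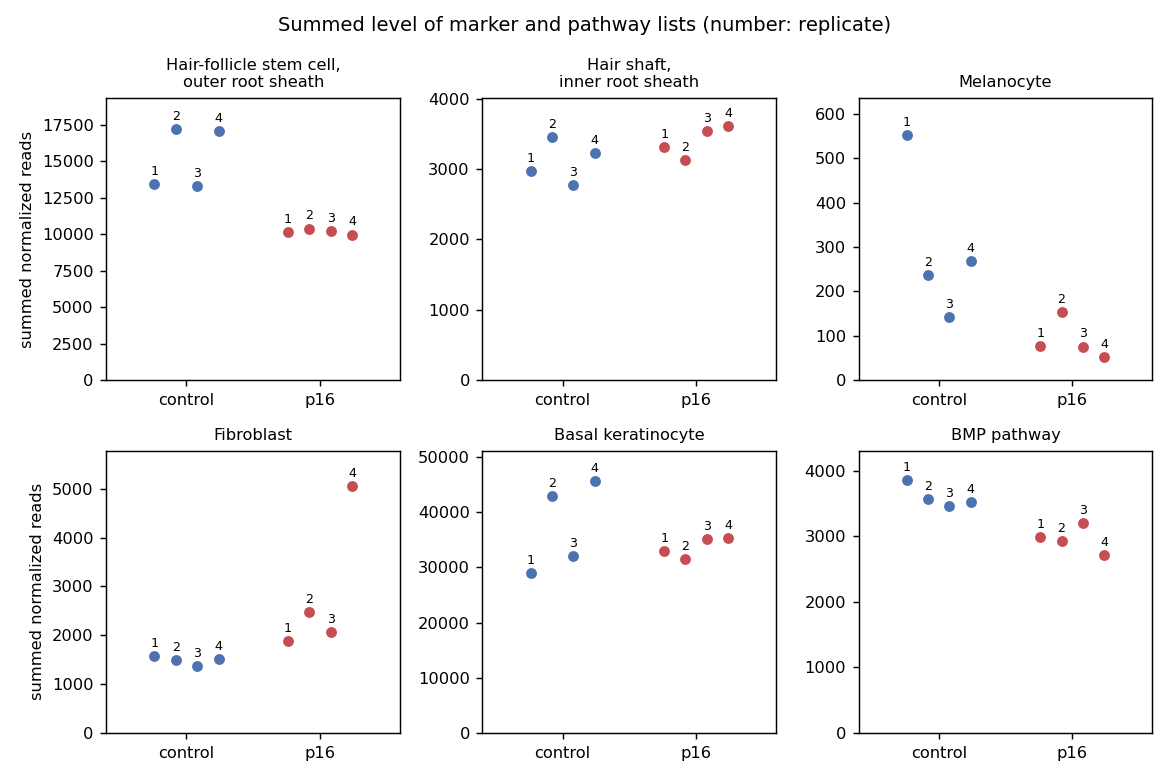
Summed normalized reads of 6 gene lists in each of 4 control (blue) and 4 p16 (red) samples, numbered by replicate. The sums of the hair-follicle stem cell list, mostly Krt15, and of the BMP list, with Id1, Id2 and Grem1, are lower in all p16 samples than in all controls. The melanocyte list has its highest value in control replicate 1, and the fibroblast list in p16 replicate 4.

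Markers of other cell types also moved, where 2.61% of all tested genes were lower and 1.24% higher. Of 13 genes of the sebaceous gland and upper follicle, 12 were tested and 7 were lower (median -1.33), led by Pparg with means of 46.2 and 9.75, and the sum was 12411 to 18641 in controls and 10801 to 13425 in p16 samples. Krt79, Krt17, Lrig1, Fasn and Mc5r were tested and not called. Most of the sum came from Krt79, with means of 4966 and 4506, and Krt17, with 7071 and 5874 (limma adjusted p = 0.724 and 0.478). Of 10 melanocyte genes, 8 were tested, all 8 with negative differences (median -1.76), and 2 were lower, Dct and Tyrp1. At an unadjusted p under 0.05 in limma 6 were lower, against 8.93% of all tested genes. The melanocyte sums were 141 to 554 in controls and 51.7 to 152 in p16 samples. Of 14 fibroblast genes, 9 were tested, Dcn and Sparc were higher and Col6a2 lower, with sums of 1372 to 1571 and 1890 to 5065. The highest sum, in p16 replicate 4, came mostly from Thy1 (2908.2) and Sparc (1917.4), while Dcn was lowest there of the p16 samples (36.2, others 85.6 to 203.0). The defining fibroblast markers Pdgfra and Col1a1 had means of 1.68 and 5.68 in p16 samples, with 0.0 and 2.5 in replicate 4, and Lum and Mfap5 were at 0. The part of these cells in the values of the patterning genes was not tested.

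Basal keratinocyte genes gave 1 call of 11, Itga3, higher in p16 cells (median 0.12, sums of 28921 to 45633 and 31529 to 35302). Differentiated keratinocyte genes gave 3 of 13, with Lor higher and Ivl and Sbsn lower (median 0.12, sums of 9054 to 12659 and 9682 to 13515). The shares over all tested genes were 1.24% higher and 2.61% lower. Langerhans and myeloid, T cell, endothelial and Merkel cell lists gave 0 calls in limma among 4, 4, 4 and 2 tested genes, and at an unadjusted p under 0.05 they gave 1, 2, 1 and 1. Unadjusted, 7.02% of all tested genes were higher and 8.93% lower. The immune marker Ptprc had means of 0.70 and 0.60, Cd3e 1.35 and 0.80 and Pecam1 3.08 and 5.38, while Lyz2, Cd8a, Cdh5, Kdr and Emcn were at 0. Sums were 77.7 to 97.8 and 88.8 to 121 for the myeloid list, 594 to 809 and 688 to 2916 for the T cell list, most of it from Thy1, which is also in the fibroblast list, 10.3 to 19.2 and 11.0 to 16.8 for the endothelial list and 5.1 to 7.7 and 4.9 to 8.1 for the Merkel list.

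How firmly each difference was measured varied among the members. Hoxd8 and Hoxc13 had an adjusted p under 0.05 in all 16 other settings that gave a value, and Msx1 in 14 of 15, with 0.0657 when replicate 3 of both groups, whose labels word the library protocol differently, was left out. Hoxd9 passed in 10 of 14 and Irx1 in 5 of 16. Hoxc9 and Irx5 passed in 0 of 16, Pbx3 in 1 and Hoxb9 in 2. No named member changed direction in any setting.

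**Figure D5:**
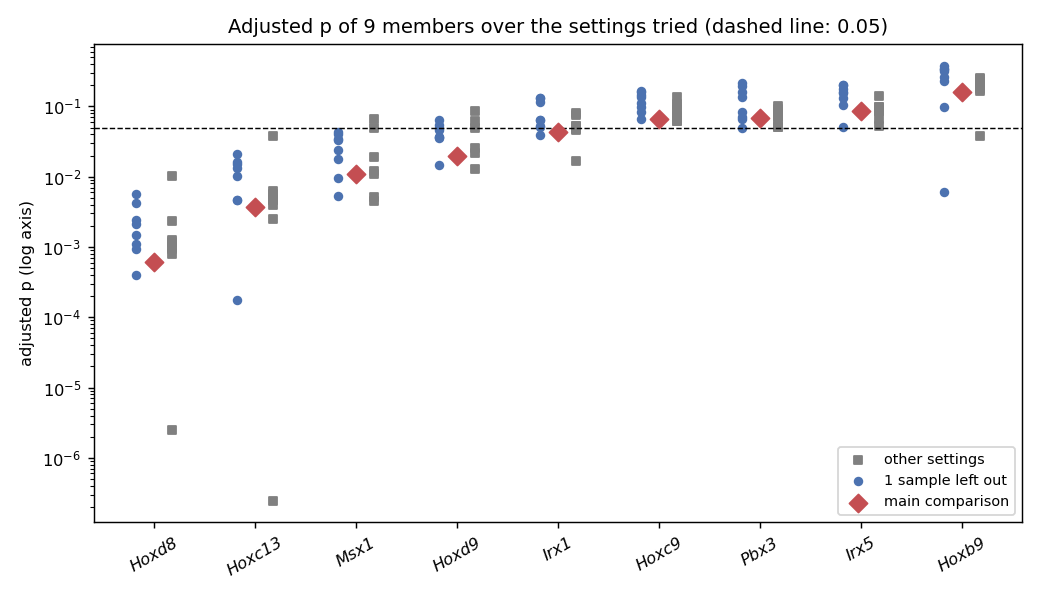
Adjusted p (log axis) of 9 members in the comparison as reported (red), in the 8 fits with 1 sample left out (blue) and in the other settings (grey), with a dashed line at 0.05. All points of Hoxd8 and Hoxc13 lie below the line, those of Hoxd9 and Irx1 lie on both sides, and those of Hoxc9 and Irx5 lie above it.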

How the data were processed

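The authors sequenced 3′ mRNA libraries made with an adapted CEL-Seq2 protocol, trimmed reads with Cutadapt and aligned them with TopHat2 to GRCm38; HTSeq and DESeq2 are named in the submitters' processing notes, without versions, and the annotation, the use of strand and of molecular identifiers are not given in the sources used here. The deposited signal values are read counts divided by a size factor per sample, rounded to 1 decimal. Dividing by the value of 1 read gave whole reads (tolerance 0.05) for nearly all values. Deposited means, ratios and p-values of the authors' own comparison were not used. A further 13 samples of a second profiling were not analysed here.

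Samples were grouped by label and compared without covariates with limma 3.58.1 (eBayes with trend, R 4.3.3) on log2(value + 1) for genes with a mean of at least 1, as a two-sided test with Benjamini-Hochberg adjustment. Alternatives were edgeR 4.0.16 (TMM) and DESeq2 1.42.0 on recovered reads, a pseudocount of 0.1, no filter or a mean of at least 5, total count scaling, a replicate block, replicate 3 of both groups left out, each sample left out and unadjusted p. Each sample is a pool of mice, and p-values measure the spread between pools. With at most 3 reads in every sample of a group, folds are lower bounds. They divide the mean of the other group by the value of 3 reads and leave out the spread of that mean. The name rule for members, which uses no measured value, and the gene lists were set with earlier results of these data known. Full values are given for members with a p under 0.05 and their paralogues or neighbours, and for list genes up to 4 called ones and defining markers. Some other genes named for their role, direction or exact 0, such as Tgif2 and En1, were picked after their values were seen. Coordinates are those of GENCODE M21, matched by Ensembl ID for 67 of 67 members. Some genes that meet these rules are not reported here, though counts include them. The fits were tested on simulated data, in which only genes with higher means than Hoxd9 and Msx1 were changed. That test therefore does not cover calls at genes with so few reads.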

Additional observations from a re-analysis of the deposited data

Results flagged for a closer look

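With 4 samples in a group, a sample was looked at again where its gap to the nearest other sample took a larger share of the group's range than Dixon's 95% critical value. This was so in 8 of 90 groups of values, where chance gives about 1 in 20. Control replicate 4 stood above the other controls at Irx4 (346.8 normalized reads, others 205.5 to 228.5), at Dlx1 (13.8, others 0.0 to 1.5) and at Hoxd9 (10.7, others 5.1 to 5.8). Among p16 samples, replicate 4 stood above the others at Hoxa7 (794.3, others 586.1 to 619.7) and at Hoxa6 (2.5, others 0.0), and below them at Hoxd8 (0.0, others 1.6 to 1.8). Replicate 3 stood above the other p16 samples at Hoxc8 (171.1, others 131.1 to 132.7) and replicate 2 at Hoxd4 (0.8, others 0.0). The samples that stood apart at Hoxd4, Hoxa6 and Hoxd8 differed from the others of their group by 3 reads or fewer. At Hoxd9, control replicate 4 held 7 reads, as did control replicates 1 and 3. It stood apart only in normalized reads, since a read was worth most in that sample (1.5278).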

How the results depend on the processing

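The count of members lower in p16 cells, 5 as reported, was 3 with edgeR and with a pseudocount of 0.1, 2 with replicate 3 of both groups left out, 13 at an unadjusted p under 0.05, and between 3 and 6 with a sample left out, lowest without control replicate 1 or 4. The edgeR fit did not test Msx1 and Hoxd9. The count of higher members, 0 as reported, was 3 unadjusted and between 0 and 1 with a sample left out, where Meis2 was called without p16 replicate 4. Over all genes, 159 higher and 334 lower became 66 and 157 without replicate 3 of both groups, 897 and 1141 unadjusted, and between 69 and 196 and between 177 and 343 with a sample left out, with the lowest counts without p16 replicate 1 and control replicate 1. The members' median, -0.15, was -0.27 without replicate 3 of both groups and between -0.33 (without control replicate 3) and -0.13 with a sample left out. The expressed members numbered 37 or 38 throughout. Whether samples with the same replicate number share an experiment is not given in the sources used here. With each gene centred on its group, same-numbered samples correlated by 0.021 to 0.148 and others by -0.144 to 0.097. With 4 samples in a group, these correlations cannot decide the question. A replicate block gave 5 lower members, 216 higher and 392 lower genes; Irx1 then had an adjusted p of 0.0526 and Hoxb9 of 0.0383. The causes were not tested. Depth limited what could be said of members with few reads.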
